A study of Mus musculus with 40 samples.

Results

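Described here are 10 genes through which blood cells sense microbial nucleic acids and lipids: Irf5 and Pld4 as the leading pair, and Unc93b1, Tlr9, Tlr7, Tlr2, Tlr4, Cd180, Ly86 and Myd88 beside them. They are 10 of the 26411 genes in the deposited count files, picked by symbol. The list was drawn up with results of the same E14.5 libraries in view, and Irf5 and Pld4 lead it because of their levels in Kat6aE/E cells. For that reason the values of these 10 genes in LSK cells are given as a description. Intervals, FDR values and counts of calls there show precision and where the thresholds lay, and the differences that chose the genes are not offered as findings.

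The libraries came from LSK cells, the lineage-marker-negative, SCA-1-positive and c-KIT-positive fraction of the fetal liver that holds hematopoietic stem and progenitor cells, sorted by flow cytometry at E14.5. There were 4 genotypes on a C57BL/6J background with 4 fetuses each: WT for both genes, Kat6aE/E, Kat6bE/E and Kat6aE/E;Kat6bE/E. Kat6aE/E fetuses carry 2 copies of a Cas9-made Kat6a allele with the substitution G656E and are WT for Kat6b. Kat6bE/E fetuses carry 2 copies of a Kat6b allele with the substitution G577E and are WT for Kat6a, and Kat6aE/E;Kat6bE/E fetuses carry both. The substitutions sit in the acetyltransferase domains of KAT6A and KAT6B, chromatin regulators that acetylate histones, and the alleles are germline, so every cell of the fetus carries them. The comparisons ask what loss of acetylation by 1 or both proteins does to gene expression in these cells. Whole E9.5 embryos served as a second set of libraries, with 4 embryos each of the same 4 genotypes and of Kat6a-/- and Kat6b-/- embryos (cfd/cfd and dec/dec in the labels), in which several exons are deleted. The study describes these embryos as male. Xist, however, which is expressed from the inactive X chromosome of female cells, was at 526.9 to 755 CPM (counts relative to the library total) in Kat6a-/- replicate 2 and Kat6b-/- replicates 2 and 3, and at most at 0.514 CPM in the other embryo libraries.

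Toll-like receptors are membrane proteins that recognise molecules common to microbes. TLR2 and TLR4 sit at the cell surface and bind bacterial lipopeptides and lipopolysaccharide, whereas TLR7 and TLR9 act in endosomes and bind single-stranded RNA and unmethylated CpG DNA. UNC93B1 escorts the endosomal receptors from the endoplasmic reticulum, and PLD4 is an endolysosomal exonuclease that digests single-stranded nucleic acids and so limits the ligands of these receptors. Downstream, the adaptor MYD88 relays the signal of most Toll-like receptors, and IRF5 is a transcription factor that induces inflammatory cytokines and type I interferon. CD180 is a surface receptor related to TLR4 that is held by LY86. In the hematopoietic system these genes are used mainly by myeloid cells, dendritic cells and B cells.

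In the mouse genome (GRCm39), the plus strand carries Irf5 (Entrez 27056; chromosome 6, 29526276 to 29541870) and Pld4 (104759; chromosome 12, 112727087 to 112735428). Unc93b1 (54445) lies on chromosome 19 from 3985167 to 3999341 and Tlr9 (81897) on chromosome 9 from 106099797 to 106104082. Tlr7 (170743) is X-linked, from 166086758 to 166113605. Tlr2 (24088) lies on chromosome 3 from 83743576 to 83749074, and Tlr4 (21898) on chromosome 4 from 66745783 to 66849936. Cd180 (17079) and Ly86 (17084) share chromosome 13, from 102830041 to 102876137 and from 37529184 to 37603012. Myd88 (17874) lies on chromosome 9 from 119165000 to 119170486. A whole-gene count was measured for each, over exons. The libraries were not strand-specific, so antisense reads would be included.

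The sequence around the start site is shown for 3 members, since the leading pair differ in base composition there and Tlr9 and Pld4 share a motif. Sequences are from the RefSeq promoter table on GRCm38.p6, 120 bases before to 30 bases after the annotated start, 5′ to 3′ on the plus strand, at chr6:29526505-29526654 for Irf5, chr12:112760535-112760684 for Pld4 and chr9:106222478-106222627 for Tlr9. Capitals mark the letters AGAGGAAG, or GAGGAA on either strand, which resemble binding sites of PU.1, a transcription factor of myeloid and B cells.
Irf5: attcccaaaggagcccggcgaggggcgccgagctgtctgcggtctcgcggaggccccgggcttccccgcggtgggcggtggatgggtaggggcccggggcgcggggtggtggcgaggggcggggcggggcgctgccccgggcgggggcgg
Pld4: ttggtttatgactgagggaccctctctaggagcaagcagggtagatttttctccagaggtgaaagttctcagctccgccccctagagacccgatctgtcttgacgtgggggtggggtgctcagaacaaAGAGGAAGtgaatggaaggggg
Tlr9: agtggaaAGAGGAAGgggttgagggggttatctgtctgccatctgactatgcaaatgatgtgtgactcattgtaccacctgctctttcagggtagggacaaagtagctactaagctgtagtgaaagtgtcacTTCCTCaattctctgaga

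Windows from 250 bases before to 50 after the start were compared over all 32851 windows of the table, and 7 of the 10 members had at least 1. The Irf5 window was 74.7% G and C and held 35 CpG dinucleotides, and only 4.17% of all windows were as rich in G and C. By contrast the Pld4 window was 46.7% G and C with 3 CpG dinucleotides, and the Tlr9 window was 49.7% G and C with 0. The median of all windows was 52.7% and 7 CpG dinucleotides. Between those of Irf5 and Pld4 stood Tlr2 at 62.0%, Myd88 at 54.0% and Ly86 at 50.3%, and both Cd180 windows were lowest, at 44.0% and 43.7%.

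GAGGAA, searched on both strands, was found in 28.3% of all windows, and AGAGGAAG, which contains it, in 4.55%. Pld4 held AGAGGAAG at positions 9 to 16 after the start and Tlr9 held it at -113 to -106, with a further GAGGAA on the minus strand at 13 to 18. GAAANNGAA, the core of interferon response elements, was found in the windows of Myd88, at -40 to -32, and Ly86, at 1 to 9, and in 8.56% of all windows. TATAAA was found in the Myd88 window, where a copy on each strand overlapped, and in 13.6% of all windows. The letters GGGANTTTC, like a kappa B site, were in none of the member windows and in 1.11% of all windows, and the E-box CACGTG was in none of them and in 7.15% of all. None of the 6 motifs searched was found in the Irf5 window. These are matches of letters, not measured sites.

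The 16 LSK libraries held 12270376 to 59216547 counts, with a median of 21709236, from 9 litters. Before the values, 4 libraries must be named that stood apart: replicate 2 of Kat6aE/E and replicates 2, 3 and 4 of Kat6aE/E;Kat6bE/E. In these 4, between 12600 and 13683 genes had a count, against 16082 to 17647 in the other 12, although their totals reached 26857333. The 3 Kat6aE/E;Kat6bE/E libraries came from 1 litter, which gave no library of another genotype. Replicate 1 of that genotype, from another litter, had 16710 genes with a count. Within Kat6aE/E;Kat6bE/E, litter and the low number of genes therefore cannot be told apart. Whole-gene counts of Kat6a and Kat6b, which cannot show a point mutation, did not pass the test between LSK genotypes. Xist was above 10 CPM in 5 of the 16 libraries, 1 each of WT, Kat6bE/E and Kat6aE/E and 2 of Kat6aE/E;Kat6bE/E. Kit, which encodes c-KIT, was at 351.4 to 551.5 CPM in all libraries, and Ly6a, which encodes SCA-1, was at only 0.94 to 10.3 CPM.

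Levels are in CPM (a gene's counts relative to the total of its library, after TMM scaling), given here for replicates 1, 2, 3 and 4 in that order. Irf5 was at 33.6, 29.9, 29.0 and 25.2 CPM in WT and at 52.8, 30.8, 43.5 and 46.3 CPM in Kat6aE/E. It was at 30.4, 22.9, 26.6 and 26.1 CPM in Kat6bE/E and at 46.4, 40.8, 33.7 and 27.1 CPM in Kat6aE/E;Kat6bE/E. Thus 3 of 4 Kat6aE/E libraries were above every WT library, and replicate 2, with few genes detected, lay within the WT range. Of the Kat6aE/E;Kat6bE/E libraries, replicate 4 lay within the WT range and replicate 3 was just above the highest WT library, while replicates 1 and 2 were well above it. Of the 8 libraries with the KAT6A substitution, 6 were above all 8 without it.

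In the fitted model the log2 fold change of Irf5 was 0.68 ± 0.083 (SE; 95% interval 0.50 to 0.86) in Kat6aE/E versus WT, a fold of 1.60. It was 0.63 (0.36 to 0.90) in Kat6aE/E;Kat6bE/E versus WT and, in a comparison without WT libraries, that with Kat6bE/E, it was 0.59 (0.34 to 0.83). In Kat6bE/E versus WT it was 0.05 (-0.19 to 0.28). The direct difference between Kat6aE/E;Kat6bE/E and Kat6aE/E was -0.05, with an interval from -0.31 to 0.22, so a difference of up to about that size in either direction could not be seen. The model adjusts for 4 surrogate variables, which absorb unexplained variation between libraries. In this design the 4 libraries with few genes detected and Kat6aE/E;Kat6bE/E replicate 1 had leverages of 0.918 to 0.998, against at most 0.36 in the other 11, so the fitted values follow each of these 5 libraries closely and carry little information on the spread within Kat6aE/E;Kat6bE/E.

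Pld4 was the only member with no overlap between the 8 libraries that carry the KAT6A substitution and the 8 that do not. In WT it was at 37.3, 33.0, 32.8 and 37.3 CPM, and in Kat6bE/E at 31.6, 32.1, 35.1 and 33.9 CPM. In Kat6aE/E it was at 53.8, 49.8, 53.2 and 52.6 CPM, and in Kat6aE/E;Kat6bE/E at 52.7, 46.7, 39.9 and 37.5 CPM. The 4 Kat6aE/E libraries lay close together and far above WT, whereas Kat6aE/E;Kat6bE/E replicate 4 exceeded the highest WT library only narrowly. Over all genes tested, 17 (0.13%) were higher without overlap in this split, and since the list was chosen with these levels known, nothing is read from that share.

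The fitted log2 fold change of Pld4 was 0.57 ± 0.077 (SE; 0.41 to 0.74) in Kat6aE/E versus WT. It was 0.50 (0.24 to 0.75) in Kat6aE/E;Kat6bE/E versus WT, 0.57 (0.35 to 0.80) versus Kat6bE/E and -0.08 (-0.29 to 0.14) in Kat6bE/E versus WT. Kat6aE/E;Kat6bE/E differed from Kat6aE/E by -0.08 (-0.32 to 0.17). The effect of the KAT6A substitution with and without the KAT6B substitution differed by 0.00 (-0.28 to 0.28) for Pld4 and by -0.09 (-0.40 to 0.21) for Irf5.

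**Figure D1:**
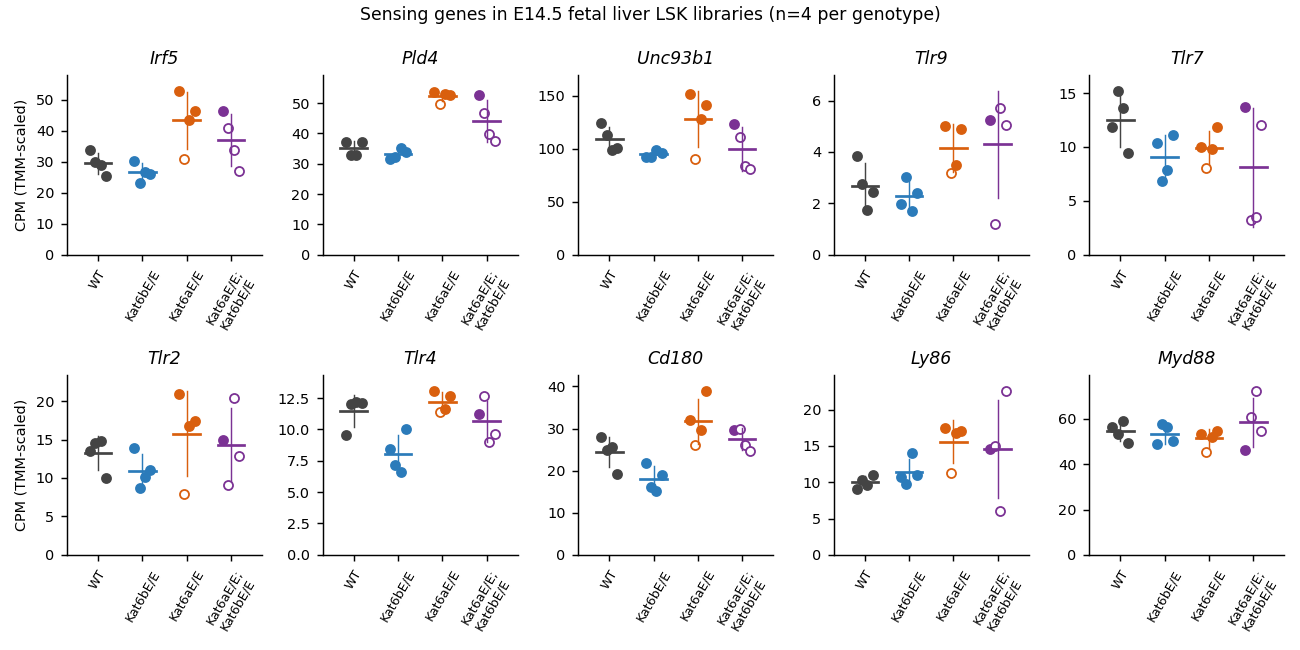
CPM (TMM-scaled, linear axis from 0) of the 10 genes in the 16 LSK libraries, 1 panel per gene and 4 libraries per genotype. Points are libraries in replicate order, open points the 4 libraries with the fewest genes detected, horizontal lines means and vertical lines ± SD. All Pld4 points of genotypes with Kat6aE/E, from 37.5 CPM upwards, lie above those without it, at most 37.3 CPM, whereas the Tlr7 and Myd88 points of all genotypes overlap.

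Unc93b1, the chaperone of the endosomal receptors, had the highest level of the 10 genes. It was at 124, 113, 98.6 and 101 CPM in WT and at 152, 90.6, 128 and 141 CPM in Kat6aE/E. In Kat6bE/E it was at 91.9, 92.1, 98.5 and 95.7 CPM, and in Kat6aE/E;Kat6bE/E at 123, 111, 83.3 and 80.3 CPM. Kat6aE/E replicate 2 and Kat6aE/E;Kat6bE/E replicates 3 and 4, which have few genes detected, were the lowest of the 16 libraries, whereas Kat6aE/E;Kat6bE/E replicate 2, with the fewest genes of all, lay within the WT range. The other 3 Kat6aE/E libraries were above all WT libraries. The fitted log2 fold change was 0.34 ± 0.079 (SE; 0.17 to 0.51) in Kat6aE/E versus WT, 0.15 (-0.10 to 0.41) in Kat6aE/E;Kat6bE/E versus WT and -0.07 (-0.28 to 0.13) in Kat6bE/E versus WT.

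Tlr9, the endosomal DNA receptor, had the lowest level, with 19 to 139 counts per library. It was at 3.86, 2.75, 1.73 and 2.43 CPM in WT and at 5.03, 3.20, 3.50 and 4.89 CPM in Kat6aE/E. In Kat6bE/E it was at 1.99, 3.04, 1.71 and 2.39 CPM, and in Kat6aE/E;Kat6bE/E at 5.23, 1.196, 5.71 and 5.04 CPM. Apart from replicate 2, the Kat6aE/E;Kat6bE/E libraries were above all WT and Kat6bE/E libraries, and 2 Kat6aE/E libraries lay within the WT range. The fitted log2 fold changes were 0.75 (0.21 to 1.29) in Kat6aE/E, 1.08 (0.27 to 1.89) in Kat6aE/E;Kat6bE/E and -0.08 (-0.82 to 0.67) in Kat6bE/E, each versus WT, and their intervals were the widest of the 10 genes.

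Tlr7, the endosomal RNA receptor, showed no such pattern. It was at 11.8, 15.2, 13.6 and 9.39 CPM in WT and at 10.004, 8.08, 9.79 and 11.8 CPM in Kat6aE/E. In Kat6bE/E it was at 10.3, 6.82, 7.87 and 11.1 CPM, and in Kat6aE/E;Kat6bE/E at 13.7, 3.21, 3.49 and 11.99 CPM. Groups overlapped in every comparison with WT. The values of 3.21 and 3.49 CPM came from libraries with few genes detected. Replicate 4 of the same litter, also with few genes detected, was at 11.99 CPM, however. The log2 fold change was -0.25 (-0.54 to 0.04) in Kat6aE/E and 0.07 (-0.36 to 0.51) in Kat6aE/E;Kat6bE/E, both versus WT. Since Tlr7 is X-linked it was also set against Xist, and it ranged from 3.21 to 13.6 CPM in the 5 libraries with Xist above 10 CPM and from 3.49 to 15.2 CPM in the other 11.

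The surface receptor Tlr2 was at 13.5, 14.6, 14.8 and 10.1 CPM in WT and at 20.9, 7.97, 16.8 and 17.5 CPM in Kat6aE/E. In Kat6bE/E it was at 13.9, 8.66, 10.1 and 11.04 CPM, and in Kat6aE/E;Kat6bE/E at 14.9, 9.07, 20.5 and 12.8 CPM. As for Unc93b1, 3 Kat6aE/E libraries were above all WT libraries and replicate 2 was below them. The log2 fold change was 0.46 (0.20 to 0.73) in Kat6aE/E and 0.29 (-0.14 to 0.72) in Kat6aE/E;Kat6bE/E, both versus WT.

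Tlr4, the lipopolysaccharide receptor, differed most in Kat6bE/E. It was at 9.55, 12.04, 12.2 and 12.1 CPM in WT and at 8.44, 7.17, 6.61 and 10.004 CPM in Kat6bE/E. In Kat6aE/E it was at 13.1, 11.4, 11.6 and 12.7 CPM, and in Kat6aE/E;Kat6bE/E at 11.3, 12.7, 9.03 and 9.66 CPM. Only Kat6bE/E replicate 4 reached the lowest WT library. Fitted log2 fold changes were -0.49 (-0.85 to -0.13) in Kat6bE/E, 0.09 (-0.17 to 0.36) in Kat6aE/E and -0.09 (-0.53 to 0.34) in Kat6aE/E;Kat6bE/E, each versus WT.

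Cd180 was at 28.0, 24.8, 25.6 and 19.3 CPM in WT and at 32.1, 26.1, 29.7 and 38.9 CPM in Kat6aE/E. In Kat6bE/E it was at 21.8, 16.02, 15.2 and 19.0 CPM, and in Kat6aE/E;Kat6bE/E at 29.6, 30.0, 26.1 and 24.7 CPM. Kat6aE/E;Kat6bE/E libraries were all above the Kat6bE/E libraries, whereas Kat6aE/E replicate 2 lay within the WT range. The log2 fold change was 0.46 ± 0.109 (SE; 0.23 to 0.69) in Kat6aE/E versus WT, 0.37 (0.01 to 0.74) in Kat6aE/E;Kat6bE/E versus WT and 0.62 (0.28 to 0.96) in Kat6aE/E;Kat6bE/E versus Kat6bE/E.

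Ly86, which encodes the partner of CD180, was at 9.14, 10.3, 9.58 and 10.99 CPM in WT and at 17.5, 11.2, 16.7 and 17.0 CPM in Kat6aE/E. In Kat6bE/E it was at 10.7, 9.75, 14.0 and 10.97 CPM, and in Kat6aE/E;Kat6bE/E at 14.6, 15.0, 6.05 and 22.5 CPM. Kat6aE/E and WT libraries did not overlap, but Kat6aE/E;Kat6bE/E libraries spanned a range wider than the other genotypes together. The log2 fold change was 0.70 ± 0.126 (SE; 0.43 to 0.96) in Kat6aE/E versus WT, 0.43 (0.00 to 0.86) in Kat6aE/E;Kat6bE/E versus WT and 0.14 (-0.22 to 0.50) in Kat6bE/E versus WT.

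Myd88, the shared adaptor, was at 56.4, 53.5, 59.2 and 49.4 CPM in WT and at 53.2, 45.4, 52.1 and 54.8 CPM in Kat6aE/E. In Kat6bE/E it was at 49.0, 57.7, 56.3 and 50.5 CPM, and in Kat6aE/E;Kat6bE/E at 46.5, 60.7, 72.3 and 54.7 CPM. All genotypes overlapped. Fitted log2 fold changes were -0.03 (-0.19 to 0.13) in Kat6aE/E, -0.10 (-0.35 to 0.15) in Kat6aE/E;Kat6bE/E and -0.04 (-0.24 to 0.15) in Kat6bE/E, each versus WT.

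**Figure D2:**
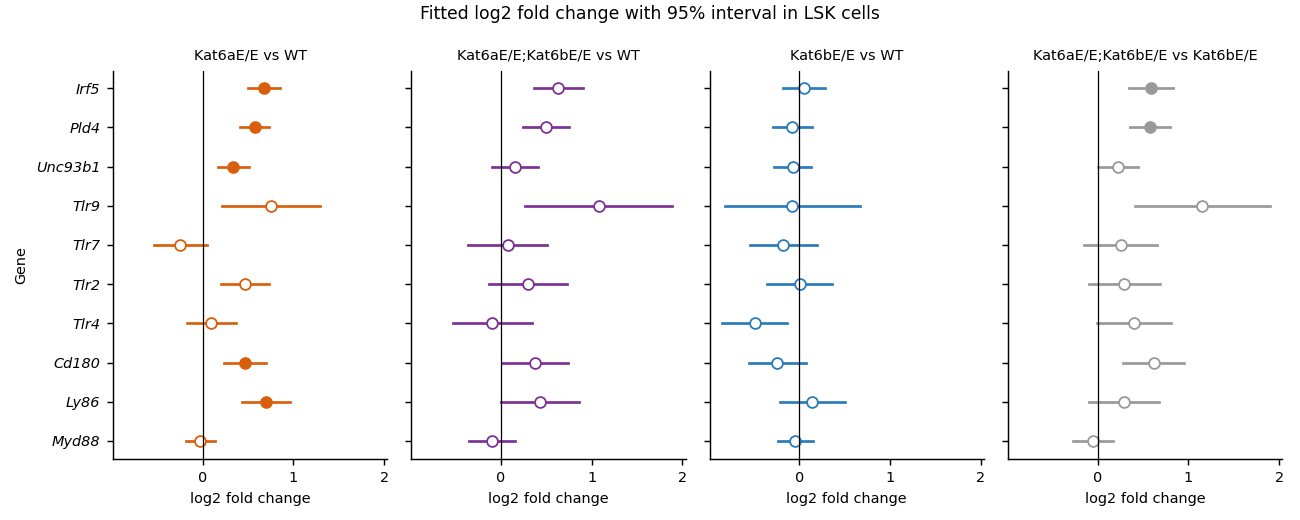
Fitted log2 fold change (x axis) with 95% interval of the 10 genes in 4 comparisons of LSK genotypes, 1 panel each. Points are estimates, filled where FDR was below 0.05 over all genes tested. The fill is a description, since the members were chosen on these libraries. Filled points are Irf5, Pld4, Unc93b1, Cd180 and Ly86 in Kat6aE/E versus WT, and Irf5 and Pld4 in Kat6aE/E;Kat6bE/E versus Kat6bE/E.

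A gene was called where FDR, the Benjamini-Hochberg adjusted p of limma over the 13071 genes tested, was below 0.05. All 10 members passed the filter on low counts. In Kat6aE/E versus WT, 178 genes (1.36%) were called, 96 higher and 82 lower, and 5 of the 10 members were among the higher ones: Irf5, Pld4, Ly86, Cd180 and Unc93b1. As this contrast chose the members, nothing is read from their count. Just inside the threshold were Cd180, with FDR 0.0484, and Unc93b1, with FDR 0.0445, and just outside was Tlr2, with FDR 0.088. The median log2 fold change of the members was 0.46 and that of all genes was -0.01. The count of 5 was 0 without Kat6aE/E replicate 1, 2 without WT replicate 2, and 3 without WT replicate 3 or 4, Kat6bE/E replicate 1, 2 or 4, or Kat6aE/E replicate 4. Of all genes, 1 was called without Kat6aE/E replicate 1, 25 without WT replicate 2 and 43 to 139 in the other fits named. The count of members was also 0 without surrogate variables, and 5 without the 4 libraries with few genes detected.

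Between Kat6aE/E;Kat6bE/E and Kat6bE/E, 193 genes (1.48%) were called, 72 higher and 121 lower, with Irf5 and Pld4 among the higher ones. The members' median was 0.35, and 9 of 10 estimates were positive. This count of 2 was 0 without Kat6bE/E replicate 1 or 2, 1 without WT replicate 2, Kat6bE/E replicate 4 or Kat6aE/E replicate 3, and 5 without Kat6aE/E;Kat6bE/E replicate 1, when only libraries with few genes detected remain in that genotype. Of all genes, 0 and 4 were called without Kat6bE/E replicate 1 and 2. Without WT replicate 2, Kat6bE/E replicate 4 and Kat6aE/E replicate 3 these were 28, 81 and 40. Without Kat6aE/E;Kat6bE/E replicate 1 there were 2929, so in these fits the members' counts moved with those of all genes. Of 15 monocyte and macrophage markers, Lyz2 and Ccr2 were also called higher in this comparison. The median log2 fold change of that list was -0.13, however. Itga2b of 6 megakaryocyte markers and Cpa3 of 5 mast cell and basophil markers were called lower. The part of these markers was not tested.

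Limma called 0 of all genes (0%) and 0 members in Kat6aE/E;Kat6bE/E versus WT. At an unadjusted p under 0.05 there were 896 genes and 4 members, and DESeq2 called 80 genes, with Irf5 and Pld4 among them, while edgeR called 1 gene with the surrogate variables and 39 without, and 0 members in both fits. The members' median was 0.33 and that of all genes was -0.03. Without Kat6aE/E;Kat6bE/E replicate 1 the count of members was 4, and that of all genes rose from 0 to 2170. Of these 4, Cd180, Irf5 and Tlr2 were higher and Tlr7 was lower, with a log2 fold change of -0.72. Pld4, at 0.15, was not called in that fit. Without replicate 2 of Kat6aE/E;Kat6bE/E or replicate 2 of Kat6aE/E, 1 member was called, Pld4, beside 17 and 13 of all genes. These are 0.13% and 0.0995% of the 13071 genes tested with all libraries. Leaving out the 4 libraries with few genes detected leaves 1 library of Kat6aE/E;Kat6bE/E, which is then assumed to vary like those of the other genotypes. In that fit, without surrogate variables, the log2 fold change of Irf5 was 0.71.

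In Kat6bE/E versus WT, 0 genes (0%) and 0 members were called by limma, edgeR and DESeq2, with 364 genes and 1 member, Tlr4, at an unadjusted p under 0.05. The members' median was -0.08 and that of all genes was 0.01, with positive estimates for 3 of 10 members and 53.5% of all genes. Kat6bE/E means in CPM were below WT means for 9 of 10 members and 51.0% of all genes. For Kat6aE/E;Kat6bE/E versus Kat6aE/E, 0 genes (0%) and 0 members were called by the 3 tools, with 197 genes and 0 members at an unadjusted p under 0.05. Without Kat6aE/E;Kat6bE/E replicate 1, 1998 of all genes passed the threshold there. Among them were Pld4 and Unc93b1, both lower in Kat6aE/E;Kat6bE/E, with log2 fold changes of -0.467 and -0.475. Mean CPM of Kat6aE/E;Kat6bE/E were below those of Kat6aE/E for 8 of 10 members and 51.1% of all genes. For 5 of 10 members they lay above WT and below Kat6aE/E means, as for 7.57% of all genes, but the members were chosen for their levels in Kat6aE/E. Comparisons that share WT or mutant libraries are not independent of each other.

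By overlap of libraries, 247 of all genes (1.89%) were higher in all 4 Kat6aE/E than in all 4 WT libraries, and Pld4 and Ly86 were the members that did so. Between Kat6aE/E;Kat6bE/E and Kat6bE/E, 292 genes (2.23%) were higher without overlap, Pld4 and Cd180 among them. Leaving out Kat6aE/E replicate 2, the remaining 3 Kat6aE/E libraries were above all WT libraries for 6 members, Irf5, Pld4, Tlr2, Cd180, Ly86 and Unc93b1, and for 5.88% of all genes. Litters of mixed genotype allowed a closer look at single fetuses. In the litter of WT replicates 1 to 3, the 1 Kat6aE/E littermate was above all 3 for 8 of 10 members and for 28.0% of all genes, at 53.8 against 32.8 to 37.3 CPM for Pld4 and at 52.8 against 29.0 to 33.6 CPM for Irf5. In another, the 1 Kat6aE/E;Kat6bE/E fetus was above its Kat6bE/E littermate for 9 of 10 members and for 48.3% of all genes, at 52.7 against 31.6 CPM for Pld4 and 46.4 against 30.4 CPM for Irf5. This pair also differed in Xist, at 0.378 CPM in the Kat6aE/E;Kat6bE/E fetus and 1623.4 CPM in the Kat6bE/E fetus. In the first litter Xist was high only in WT replicate 3, at 1429.1 CPM. The libraries of both litters were among those in view when the members were chosen, so nothing is read from the members' counts.

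**Figure D3:**
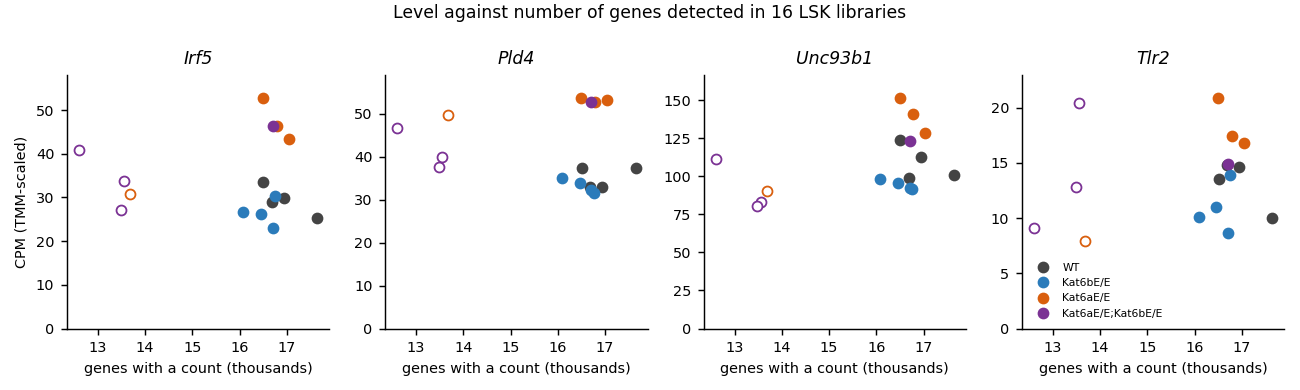
CPM (TMM-scaled, linear axis from 0) of Irf5, Pld4, Unc93b1 and Tlr2 against the number of genes with at least 1 count (unit as given on the axis) in the 16 LSK libraries. Colours are genotypes and open points the 4 libraries with the fewest genes detected. Kat6aE/E replicate 2 (open orange), at 13683 genes, is low for Irf5, Unc93b1 and Tlr2 but at 49.8 CPM for Pld4, above all 8 libraries without the KAT6A substitution.

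**Figure D4:**
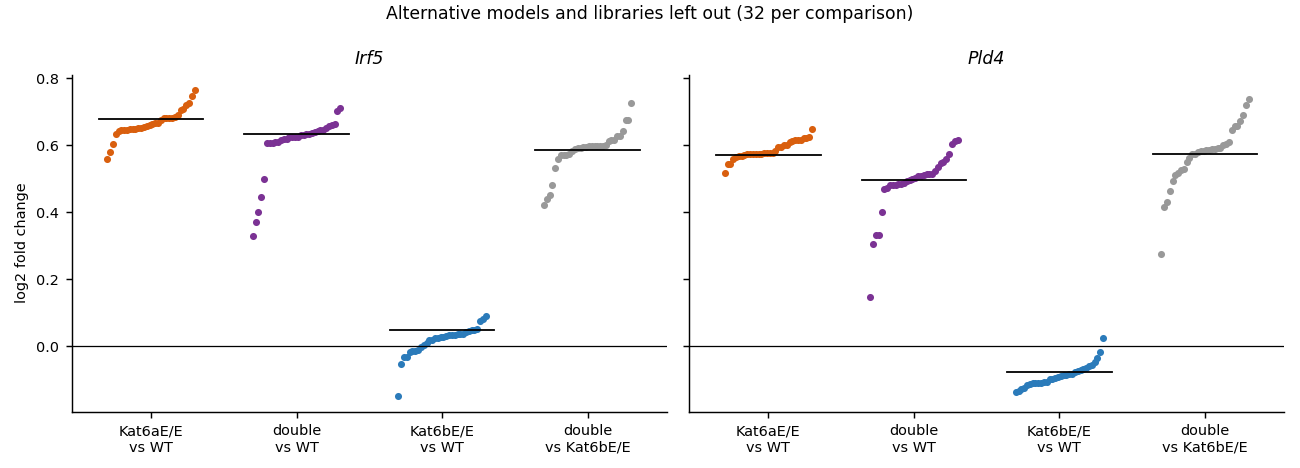
Log2 fold change of Irf5 and Pld4 (y axis) in 4 comparisons under 32 alternatives each, which are other models or libraries left out, ordered by value. Points are fits, black bars are the values given in the text, and double stands for Kat6aE/E;Kat6bE/E. In Kat6aE/E versus WT the estimates run from 0.56 to 0.77 for Irf5 and from 0.52 to 0.65 for Pld4, and in Kat6bE/E versus WT they surround or lie near 0.

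Under those 32 alternatives the estimates for Irf5 and Pld4 in Kat6aE/E versus WT were positive each time, in libraries that share the samples on which the genes were chosen. Irf5 ran from 0.42 to 0.73 and Pld4 from 0.28 to 0.74 in Kat6aE/E;Kat6bE/E versus Kat6bE/E. They ran from 0.33 to 0.71 and from 0.15 to 0.62 in Kat6aE/E;Kat6bE/E versus WT. The lowest Pld4 value was obtained without Kat6aE/E;Kat6bE/E replicate 1. In bulk RNA, fewer cells that express a gene and less RNA of it per cell cannot be told apart.

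Levels can be compared between genes only per length, as FPKM, CPM divided by the exon length in kilobases. In WT, Unc93b1 was highest at 48.9 ± 5.30 FPKM (SD, n=4), followed by Myd88 at 28.2 ± 2.16, Pld4 at 17.8 ± 1.28 and Irf5 at 11.1 ± 1.30. Cd180 at 10.5 ± 1.57 and Ly86 at 10.03 ± 0.817 came next, and their ranges overlapped with each other, as did those of Irf5 and Cd180. Tlr2 at 4.64 ± 0.773 and Tlr7 at 3.14 ± 0.627 overlapped too, and Tlr4 at 1.45 ± 0.162 and Tlr9 at 0.775 ± 0.255 FPKM were lowest. In Kat6aE/E, Pld4 reached 26.5 ± 0.884 FPKM and its range overlapped with that of Myd88, at 26.5 ± 2.14, while Irf5 was at 16.4 ± 3.50 FPKM. Neighbouring genes overlapped in Kat6aE/E;Kat6bE/E at every step except between Cd180 and Tlr2.

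The other genes of the pathway were taken from 7 lists with 92 genes, of which 83 passed the filter. In Kat6aE/E versus WT, 1 rose and 1 fell, against 1.36% of all genes. Irf8, a transcription factor of monocytes, dendritic cells and B cells, had a log2 fold change of 0.45 ± 0.0947 (SE; limma FDR 0.0299), with 94.3 to 113.8 CPM in WT and 76.6 to 157.9 CPM in Kat6aE/E, so its libraries overlapped. Ctsl, which encodes the endolysosomal protease cathepsin L, fell by 0.45 ± 0.0976 (SE; limma FDR 0.0316), from 30.9 to 34.9 CPM in WT to 21.0 to 26.1 CPM in Kat6aE/E without overlap. By limma, 0 of the 83 were called in each of the other 4 comparisons of genotypes. At an unadjusted p under 0.05 there were 7 of 83 in Kat6aE/E;Kat6bE/E versus WT, where edgeR and DESeq2 also called 0, against 896 (6.85%) of all genes. There were 18 in Kat6aE/E;Kat6bE/E versus Kat6bE/E, against 2721 (20.8%) of all genes, 3 in Kat6bE/E versus WT, against 364 (2.78%), and 2 in Kat6aE/E;Kat6bE/E versus Kat6aE/E, against 197 (1.51%). The count of 2 moved between 0 and 5 when single libraries were left out, and it was 0 without Kat6aE/E replicate 1 or 4, WT replicate 2 or Kat6bE/E replicate 1, 1 without WT replicate 1 or 3 or Kat6bE/E replicate 4, and 5 without Kat6aE/E;Kat6bE/E replicate 1 or 2. Without Kat6aE/E;Kat6bE/E replicate 1, 15 of the 83 were called in Kat6aE/E;Kat6bE/E versus WT, in a fit that called 2170 of all genes.

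By list, 6 of 7 other Toll-like receptors had positive estimates in Kat6aE/E versus WT, with a median of 0.37 and 0 called. Among 16 co-receptors, chaperones and trafficking proteins the median was -0.025, with 7 positive and only Ctsl called. Of 6 nucleases 4 were positive (median 0.12), and of 24 adaptors, kinases and regulators 16 were positive (median 0.02), with 0 called in either list. Among 14 IRF and NF-kB transcription factors 8 were positive (median 0.10) and only Irf8 was called, and among 7 cytokine and chemokine targets 4 were positive (median 0.12) and 0 were called. All 9 cytosolic sensors had positive estimates, with a median of 0.37, but 0 were called, and the smallest FDR among them was 0.0737. Of the 83 genes, 54 had positive estimates, the median was 0.05 and 20 had an unadjusted p under 0.05. Of all 13071 genes, 6004 (45.9%) had positive estimates, the median was -0.01 and 1639 (12.5%) had an unadjusted p under 0.05.

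**Figure D5:**
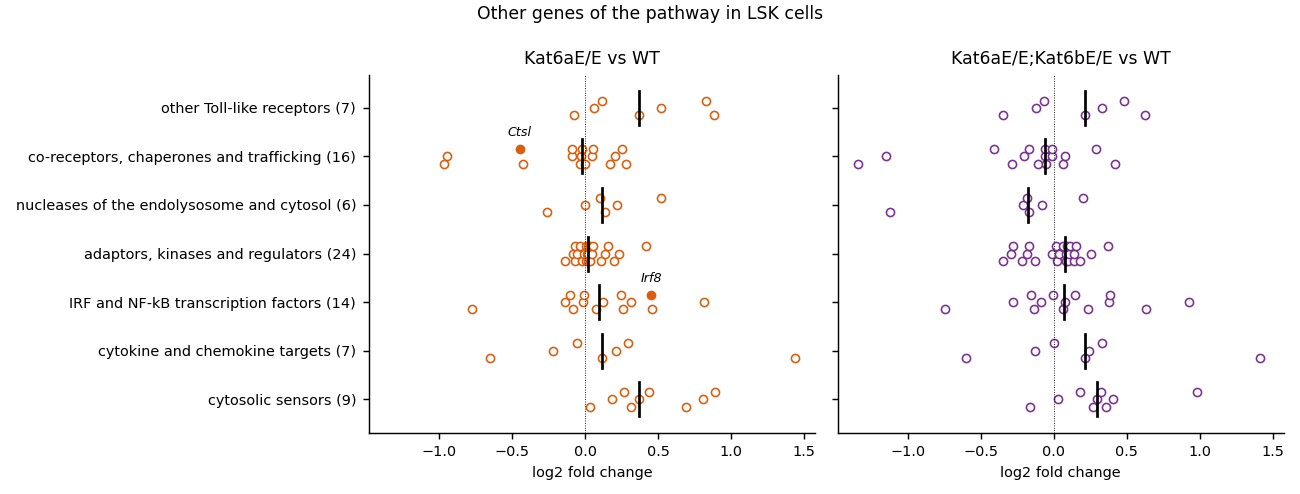
Log2 fold change (x axis) of the 83 other pathway genes in LSK cells, by list (y axis, number of genes tested in parentheses), in Kat6aE/E versus WT and Kat6aE/E;Kat6bE/E versus WT. Points are genes, filled and named where FDR was below 0.05, and black bars are list medians. Irf8 at 0.45 and Ctsl at -0.45 are the filled points, and all 9 cytosolic sensors lie to the right of 0 on the left side.

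Markers of other blood cells moved with some of these values, and their part in them was not tested. Of 15 monocyte and macrophage markers, 3 rose in Kat6aE/E versus WT: Lyz2, with 115.8 to 140.1 CPM in WT and 151.1 to 198.3 CPM in Kat6aE/E, Ccr2, with 25.5 to 28.4 and 34.4 to 42.1 CPM, and Csf1r, with 106.5 to 122.1 and 108.6 to 170.3 CPM. The median of the list was -0.40, however, Cd14 was under 1 CPM, and the macrophage gene C1qa was at 6.58 to 9.79 CPM in WT and at 3.20 to 6.50 CPM in Kat6aE/E. The summed level of the list was 438.5 to 575.4 CPM in WT, 508.9 to 698.7 in Kat6aE/E, 394.3 to 512.9 in Kat6bE/E and 515.9 to 912.5 in Kat6aE/E;Kat6bE/E. Granulocyte markers summed to 4663 to 7390 CPM in WT and 5643 to 6572 CPM in Kat6aE/E with 0 of 10 called.

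Dendritic cells and B cells are known to express several of the 10 members. Dendritic markers summed to 44.0 to 56.7 CPM in WT and 25.4 to 42.4 CPM in Kat6aE/E, with 1 of 5 tested called, Ccr9, which was lower, at 23.3 to 39.8 CPM in WT and 9.55 to 19.0 CPM in Kat6aE/E. The median log2 fold change of this list was 0.09, and without Ccr9 its sum was 14.46 to 22.49 CPM in WT and 15.6 to 25.4 CPM in Kat6aE/E. B lineage markers summed to 77.0 to 158.1 CPM in WT, 89.4 to 116.7 in Kat6bE/E, 47.4 to 83.9 in Kat6aE/E and 23.5 to 54.5 in Kat6aE/E;Kat6bE/E, with a median log2 fold change of -1.9 in Kat6aE/E and 0 of 6 called. Stem and progenitor markers summed to a median of 1938 CPM in WT, 1360 in Kat6bE/E, 1861 in Kat6aE/E and 1141 in Kat6aE/E;Kat6bE/E, with Gata2 called lower in Kat6aE/E versus WT. Called lower there were also Itga2b of 6 megakaryocyte and Cpa3 of 5 mast cell and basophil markers. Erythroid markers summed to a median of 1217 CPM in WT, 4041 in Kat6bE/E, 1360 in Kat6aE/E and 7334 in Kat6aE/E;Kat6bE/E, where single libraries ran from 1105 to 12520 CPM, without a call among 8. Likewise 0 of 2 T and NK cell, 6 hepatocyte and 6 endothelial and stromal markers were called.

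The genes whose levels followed the leading pair most closely were found by Pearson correlation of log2 CPM over the 16 LSK libraries, as a description, since the libraries share genotype, litter and depth. For Irf5 they were Rab3d (r = 0.927), Csf2rb (0.886), Apobr (0.885), Espnl (0.884) and Alox5ap (0.88). For Pld4 they were Fes (0.915), Napsa (0.898), Rogdi (0.885), Ikbke (0.884) and Ralb (0.86). Irf5 and Pld4 correlated with r = 0.855, which ranked Irf5 as number 6 of 13070 genes for Pld4 and Pld4 as number 17 for Irf5. Among the members, Cd180 (0.858) and Unc93b1 (0.797) followed Irf5 and Tlr7 (-0.006) and Myd88 (-0.044) did not. Over the 12 libraries left without those with few genes detected, correlations were higher in general: Irf5 then ranked as number 14 for Pld4, Pld4 as number 40 for Irf5 and Rab3d as number 15 for Irf5. There Irf5 correlated with Pld4 at 0.916, with Unc93b1 at 0.917, with Tlr2 at 0.893 instead of 0.61, with Tlr9 at 0.801 instead of 0.41 and with Ly86 at 0.785 instead of 0.414.

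In whole E9.5 embryos, whose 24 libraries held 8401990 to 23339359 counts and played no part in choosing the list, the genes were expressed at low levels and 6 of 10 passed the filter: Irf5, Pld4, Tlr2, Tlr4, Unc93b1 and Myd88. At FDR below 0.05 limma called 0 of these 6 in each of 5 comparisons with WT, with all genes called at 2.64% in Kat6a-/-, 0.508% in Kat6b-/-, 0.275% in Kat6aE/E, 0% in Kat6bE/E and 2.91% in Kat6aE/E;Kat6bE/E. Pld4 came closest, in Kat6a-/-. It was at 0.432, 0.600, 0.507 and 0.429 CPM in WT, from 5 to 8 counts, and at 1.68, 1.40, 1.64 and 1.12 CPM in Kat6a-/-, from 19 to 24 counts. All Kat6a-/- libraries were above all WT libraries, as for 5.44% of all genes. The log2 fold change was 1.31 ± 0.394 (SE; 0.50 to 2.12) with limma FDR 0.0702, and it passed the threshold with edgeR with or without surrogate variables (FDR 0.0467 and 0.0311), and without a filter on low counts (limma FDR 0.0479). DESeq2 called 0 of the 6 in any comparison. Kat6a-/- replicate 2 had high Xist. The 3 other Kat6a-/- libraries were above all WT libraries for Pld4, as for 9.11% of all genes. For Pld4 this follows from the order of all 4, so it is no check on the part of Xist. With Xist as a covariate or without replicate 2 of Kat6a-/-, limma called 0 members. At an unadjusted p under 0.05 limma had Pld4 in Kat6a-/-, Irf5 and Tlr2 in Kat6aE/E, and Tlr2 in Kat6b-/-, Kat6bE/E and Kat6aE/E;Kat6bE/E. The share of all embryo genes at that p is not given here, and these comparisons share the WT embryos, so nothing is read from this list.

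In Kat6aE/E embryos Pld4 was at 0.653, 1.12, 0.289 and 0.835 CPM, overlapping with WT, and its log2 fold change was 0.31 (-0.51 to 1.14; limma FDR 0.853). Kat6aE/E;Kat6bE/E embryos had it at 0.691, 0.344, 0.590 and 0.249 CPM, with a log2 fold change of 0.00 (-0.88 to 0.88; limma FDR 1). These intervals include the sizes measured in LSK cells. Irf5 was at 2.94, 2.32, 3.13 and 3.48 CPM in WT embryos and at 4.04, 4.83, 4.41 and 3.21 CPM in Kat6aE/E embryos. Kat6aE/E replicate 4 lay within the WT range, and the log2 fold change was 0.44 ± 0.192 (SE; 0.05 to 0.84; limma FDR 0.434). In Kat6a-/- Irf5 was at 4.68, 2.79, 5.24 and 4.64 CPM, with a log2 fold change of 0.39 (-0.02 to 0.79; limma FDR 0.325). In Kat6aE/E;Kat6bE/E it was at 4.49, 3.51, 3.93 and 3.68 CPM, all above WT, with 0.34 (-0.06 to 0.74; limma FDR 0.368). Estimates were 0.06 in Kat6b-/- and 0.15 in Kat6bE/E. As no share of all genes is given for these orders of libraries, nothing is read from them.

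Tlr2 had positive estimates in all 5 embryo comparisons with WT, none past the threshold. It was at 0.778, 0.858, 1.35 and 1.23 CPM in WT and at 2.43, 1.52, 2.10 and 2.06 CPM in Kat6b-/-, without overlap, as for 3.17% of all genes, with a log2 fold change of 0.87 ± 0.252 (SE; limma FDR 0.115). Kat6aE/E;Kat6bE/E embryos had it at 1.73, 2.54, 1.90 and 1.62 CPM, with a log2 fold change of 0.76 ± 0.256 (SE; limma FDR 0.101). Replicates 2 and 3 of Kat6b-/- had high Xist, and the other 2 were at 2.43 and 2.06 CPM. Whole-gene counts of Kat6b, whose deleted exons are only part of the gene, were higher in Kat6b-/-, at 52.0 to 58.3 CPM against 38.2 to 42.6 CPM in WT (fold 1.33, limma FDR 0.00441). These comparisons share the 4 WT embryos. Tlr4, Unc93b1 and Myd88 had log2 fold changes between -0.45 and 0.30 and limma FDR of 0.371 or more. The 4 members below the filter had 0 to 19 counts per embryo library, and Tlr9 had 0 counts in 16 of 24 libraries, including all WT libraries, in which 3 counts, the limit that a count of 0 allows, would be 0.157 to 0.254 CPM. Ly86 had 0, 0, 0 and 2 counts in WT, 5, 3, 6 and 4 in Kat6a-/- and 4, 10, 4 and 3 in Kat6aE/E. Both mutant groups were above all WT libraries in CPM, from 0.187 and 0.193 upwards against at most 0.107. The other genotypes overlapped with WT, as did all genotypes for Tlr7, Tlr9 and Cd180. At so few counts nothing is read from this, and with low counts kept limma called none of the 4.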

How the data were processed

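The deposited files hold raw counts per gene, which the authors made with Rsubread by aligning read pairs to mm39 and counting those assigned to RefSeq genes with featureCounts. Per the labels, libraries were made with a TruSeq RNA kit, which does not keep strand. Of 26411 genes, 26359 had their identifier in a table of gene names, 52 were left out and 21030 were protein-coding. From the counts, CPM and FPKM were computed here after TMM scaling, with the gene lengths deposited beside the counts. Gene positions are from GENCODE on GRCm39.

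As in the authors' methods, Y-linked and non-coding genes were dropped, low genes were removed with filterByExpr, 4 surrogate variables were estimated with wsva, and voomLmFit (litter as the blocking factor) was followed by robust eBayes in limma. Separate fits were made for 16 LSK libraries (13071 genes, litter correlation 0.331) and 24 embryo libraries (14183 genes, 0.107). FDR stands for p adjusted after Benjamini and Hochberg across the genes tested in each comparison. Versions were DESeq2 1.42.0, limma 3.58.1, edgeR 4.0.16 and R 4.3.3. Groups came from the labels, each library being 1 fetus or embryo, and no 2 libraries of a group agreed within sampling noise. Replicate numbers did not pair the samples, since deviations of same-numbered libraries correlated with a median r of 0.004 in LSK cells.

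The 10 members, the pathway lists, markers and motifs were chosen with earlier results of these data known. Named beside the members are pathway genes called in Kat6aE/E or Kat6aE/E;Kat6bE/E versus WT, the 5 genes most correlated with Irf5 and with Pld4, Kat6a, Kat6b and Xist, and marker genes that were called or define a sort or cell type. The markers C1qa and Cd14 were named after their values were seen.

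Alternatives were 0, 2 or 6 surrogate variables, no litter block, a replicate block, edgeR's quasi-likelihood test (surrogate variables included or not), the DESeq2 test, size factors of DESeq2 in place of TMM, keeping genes of low count, all gene types, Xist as a covariate, only the 8 libraries compared, and omission of each library. Added after seeing the data were a covariate for how many genes were detected and omission of the 4 libraries with the fewest genes, with and without surrogate variables. In data simulated for Kat6aE/E versus WT over 13137 genes, 19% of changes of 0.5 and 63% of changes of 1 in log2 were called, with 5 false calls. For Kat6a-/- versus WT embryos over 14191 genes these were 46% and 81%, again with 5 false calls. Simulated counts varied independently between libraries, without litter effects or shared variation for surrogate variables to absorb. Limits that a count of 0 allows cover counting error only. Sequence reads were not used here.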

Additional observations from a re-analysis of the deposited data

Results flagged for a closer look

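In 5 of the 76 groups of 4 libraries examined for the members, 1 library stood apart from the other 3 by more than Dixon's 95% critical value for groups of 4, and chance alone gives about 1 in 20 such groups. In LSK cells these were Tlr4 in WT replicate 1, at 9.554 CPM against 12.04 to 12.2 CPM in the others, Tlr9 in Kat6aE/E;Kat6bE/E replicate 2, at 1.196 CPM against 5.04 to 5.71 CPM, and Ly86 in Kat6aE/E replicate 2, at 11.22 CPM against 16.7 to 17.5 CPM. The last 2 are libraries with few genes detected. In embryos, Tlr4 in Kat6aE/E replicate 1 was at 2.97 CPM against 1.80 to 1.90 CPM, and Myd88 in Kat6b-/- replicate 3 was at 7.273 CPM against 5.04 to 5.30 CPM.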

How the results depend on the processing

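Of the 10 members, the count called in Kat6aE/E versus WT was 5, and it was 0 with 0 surrogate variables or with edgeR without surrogate variables, 2 with 2 surrogate variables, 3 without the litter block or with edgeR with surrogate variables, 2 with the replicate block, and 1 with genes detected as a covariate or with only the 8 libraries compared. Leaving out 1 library at a time gave 0 to 5. The count of 2 of 83 pathway genes in that comparison was 0 with 0 surrogate variables, no litter block, the replicate block, edgeR without surrogate variables, genes detected as a covariate or only 8 libraries. It was 1 with 2 surrogate variables, edgeR with surrogate variables or Xist as a covariate, and 5 with 6 surrogate variables or without the 4 libraries with the fewest genes, and leaving out 1 library gave 0 to 5. In Kat6aE/E;Kat6bE/E versus WT the count of 0 members was 1 with 6 surrogate variables and 2 with DESeq2 or without the 4 libraries, and leaving out 1 library gave 0 to 4, while the 0 pathway genes became 1 without the 4 libraries and 0 to 15 with 1 library left out. In Kat6aE/E;Kat6bE/E versus Kat6bE/E the count of 2 members was 0 with 0 surrogate variables, the replicate block, edgeR without surrogate variables, genes detected as a covariate, only 8 libraries, or without the 4 libraries and surrogate variables, and 4 with edgeR with surrogate variables or DESeq2, and leaving out 1 library gave 0 to 5. In Kat6aE/E;Kat6bE/E versus Kat6aE/E, 0 to 2 members were called with 1 library left out and 0 under the other alternatives, and in Kat6bE/E versus WT 0 were called under all 32. The count of 0 members in embryos became 1, Pld4 in Kat6a-/-, with edgeR with or without surrogate variables, no filter on low counts, genes detected as a covariate or only 8 libraries, and was 0 with each library left out. The cause was not tested, except that omitting libraries leaves fewer samples.

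Counts over all genes also moved, and where none is given for a setting, nothing is read from the count of members. In Kat6aE/E versus WT 178 genes became 3 with 0 surrogate variables, 0 with edgeR without surrogate variables, 28 with the replicate block and 303 without the 4 libraries. In Kat6aE/E;Kat6bE/E versus WT 0 became 39 with edgeR without surrogate variables, where 0 members were called, 80 with DESeq2 and 96 without the 4 libraries, and in Kat6bE/E versus WT 0 became 61 without the 4 libraries, with 0 members called. In Kat6aE/E;Kat6bE/E versus Kat6bE/E 193 became 0 with 0 surrogate variables, 8 with the replicate block, 1333 with edgeR and 1865 with DESeq2, both with surrogate variables, and 957 without the 4 libraries. Replicate numbers are shared by name only: in LSK cells deviations of same-numbered libraries correlated between -0.427 and 0.353. With DESeq2 size factors the median log2 fold change of all genes stayed between -0.0299 and 0.0036. At this depth and number of libraries, 19% of changes of 0.5 in log2 were called in data simulated for LSK cells and 46% in those for embryos. The simulated data held no litter effects or shared variation, so these shares need not hold for the real libraries.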
